A study of Mus musculus with 4 samples.

Results

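Cdkn1a, Cdkn2a, Mdm2, Ccng1, Ccnd1, Plk2, Trp53inp1 and Btg2 were followed as genes of cell cycle arrest and of the p53 response. They were chosen by symbol, with earlier results of these data known. All 8 were present among the 27998 genes listed in each of the 4 count matrices. The transcription factor p53, encoded by Trp53, is held at a low level by the ubiquitin ligase Mdm2 and accumulates after DNA damage and other stress, when it switches on genes that stop the cell cycle, repair DNA or start cell death. Cdkn1a encodes p21, an inhibitor of the cyclin-dependent kinases and the best known mediator of p53-dependent arrest. In the kidney, tubule cells that stay arrested after injury are studied as a step between acute injury and fibrosis.

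The nuclei came from kidneys of C57BL/6 mice at week 22 and were profiled by droplet single-nucleus RNA sequencing in 4 libraries, 2 from kidneys treated with losartan and 2 from untreated kidneys. Losartan blocks the type 1 receptor of angiotensin II. The labels state no dose, route or duration of treatment and no sex, and they name no genotype beyond the strain. Since no label ties the libraries to separate animals, all p-values measure the spread between these libraries only, which may be technical.

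The matrices held 58820323 and 59078762 unique molecular identifiers (UMIs) in losartan libraries 1 and 2, against 42290414 and 54971880 UMIs in untreated libraries 1 and 2. After filtering, 36003 of 39654 barcodes were kept as nuclei, between 8579 and 9371 per library, and each pair of libraries shared between 21 and 29 barcodes. Clustering gave 38 clusters, of which 29 were named from marker genes and formed 17 classes. Treatments were compared in the 15 classes that held 20 or more nuclei in each library. The names stand for nuclei that resemble a cell type by these markers. The markers of a class were higher in it than in the remaining nuclei for 7 of 7 to 16 of 16 genes in 12 classes. The count was 5 of 7 in parietal epithelium, 14 of 15 in principal and connecting tubule cells and 7 of 8 in thick ascending limb. Since the same markers named the clusters, these counts are a description and no separate check of the names. Within the proximal tubule class the treatments drew on different clusters. Cluster 3, led by Slco1a1, held 3021 losartan and 386 untreated nuclei, and cluster 12, led by Cyp4a14, held 363 losartan and 1802 untreated nuclei. The thin limb class held cluster 31, with 46 and 108 nuclei in losartan libraries 1 and 2, against 4 and 254 nuclei in untreated libraries 1 and 2.

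By position in GRCm38 with GENCODE M21, Cdkn1a lies at chr17:29090976-29100727 on the plus strand, Cdkn2a at chr4:89274471-89294653 on the minus strand, Mdm2 at chr10:117688875-117710758 on the minus strand and Ccng1 at chr11:40748552-40755311 on the minus strand. Ccnd1 lies at chr7:144929931-144939925 on the minus strand, Plk2 at chr13:110395046-110400844 on the plus strand, Trp53inp1 at chr4:11156431-11174379 on the plus strand and Btg2 at chr1:134075170-134079120 on the minus strand. Ccnd1 overlaps LTO1 on the opposite strand, and without knowledge of the strand setting of the counting, reads of the pair cannot be told apart. RefSeq promoters of GRCm38.p6, from 250 bases before to 50 bases after a transcript start, were at hand for 6 of the 8 genes, 8 promoters in all, with none for Ccnd1 or Trp53inp1. The promoters of 5 genes are shown as examples that differ in the p53 motifs they hold. All 8 genes were lower in losartan libraries, so that order does not set these 5 apart. A link between motifs and the change was not tested. Both strands were searched for the p53 decamer, the p53 response element made of 2 decamers at most 13 bases apart, a pair of p53 core sequences at the spacing of adjoining decamers and the CArG box of serum response factor. They were also searched for the letters TATAAA of the TATA box, for GGGCGG of the GC box, for TGACGTCA of the cAMP response element and for TGANTCA of the AP-1 site, and capitals in the sequences mark every match. Matches can overlap, since a response element contains decamers and core sequences.
Cdkn1a, chr17:29090729-29091028, plus strand: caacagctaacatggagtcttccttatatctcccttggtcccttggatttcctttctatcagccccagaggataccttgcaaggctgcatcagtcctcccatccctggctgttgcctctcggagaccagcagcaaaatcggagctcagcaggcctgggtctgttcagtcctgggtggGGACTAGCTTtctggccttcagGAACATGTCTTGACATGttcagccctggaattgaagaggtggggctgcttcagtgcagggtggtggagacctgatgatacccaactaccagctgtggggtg
Mdm2, chr10:117710709-117711008, minus strand: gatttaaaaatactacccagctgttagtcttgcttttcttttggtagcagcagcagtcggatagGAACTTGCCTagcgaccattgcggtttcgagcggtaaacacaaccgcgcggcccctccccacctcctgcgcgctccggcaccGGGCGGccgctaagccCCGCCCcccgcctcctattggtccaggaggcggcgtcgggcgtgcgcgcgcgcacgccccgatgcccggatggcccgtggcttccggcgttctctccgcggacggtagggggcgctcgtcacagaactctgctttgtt
Ccng1, chr11:40755237-40755536, minus strand: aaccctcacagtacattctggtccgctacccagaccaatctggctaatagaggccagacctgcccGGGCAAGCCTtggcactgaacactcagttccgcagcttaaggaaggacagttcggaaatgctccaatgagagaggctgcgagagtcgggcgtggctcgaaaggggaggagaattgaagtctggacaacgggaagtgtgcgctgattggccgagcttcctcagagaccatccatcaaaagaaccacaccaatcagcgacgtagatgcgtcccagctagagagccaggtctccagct
Plk2, chr13:110394794-110395093, plus strand: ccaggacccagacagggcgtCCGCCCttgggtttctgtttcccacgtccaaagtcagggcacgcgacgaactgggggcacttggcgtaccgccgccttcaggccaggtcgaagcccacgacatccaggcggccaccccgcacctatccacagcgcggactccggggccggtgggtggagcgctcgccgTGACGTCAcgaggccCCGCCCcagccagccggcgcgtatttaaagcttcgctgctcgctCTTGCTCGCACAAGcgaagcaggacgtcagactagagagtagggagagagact
Btg2, chr1:134079106-134079405, minus strand: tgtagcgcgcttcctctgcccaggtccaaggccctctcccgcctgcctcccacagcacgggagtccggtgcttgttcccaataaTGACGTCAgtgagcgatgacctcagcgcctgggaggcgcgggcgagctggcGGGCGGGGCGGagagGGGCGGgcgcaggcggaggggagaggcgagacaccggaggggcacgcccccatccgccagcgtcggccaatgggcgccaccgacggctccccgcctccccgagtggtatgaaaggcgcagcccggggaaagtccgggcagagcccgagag
The upstream Cdkn1a promoter held p53 decamers that begin 73 and 51 bases before the start and together matched the response element, which 0.0737% of 32544 mouse promoters held. It also held a core pair beginning 48 bases before the start, which overlaps the second decamer. Mdm2 held a decamer 186 bases and Ccng1 a decamer 185 bases before the start, a motif found in 8.36% of promoters. Plk2 held a core pair across its start, as did 7.11% of promoters, and the letters TGACGTCA, which it shared with Btg2 and with 1.80% of promoters. The second Cdkn1a promoter, at chr17:29093519-29093818, and both Cdkn2a promoters held GGGCGG, as did 35.9% of promoters, and none of the p53 motifs. The TATA box letters, the CArG box and the AP-1 site, found in 13.6%, 1.64% and 7.79% of promoters, matched none of the 8. A match describes the letters and says nothing of binding.

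Over the whole kidney, all 8 genes were lower in both losartan libraries than in either untreated library. Across the 18410 genes tested, 29.1% showed that order. The fitted changes, log2 of losartan over untreated, ranged from -2.30 for Cdkn1a to -0.43 for Mdm2, with a median of -0.81 over the 8 genes and of -0.01 over all genes tested. None was called, a call being an adjusted p under 0.05 in edgeR's quasi-likelihood test, which called 0 of the 18410 genes (0%). At an unadjusted p under 0.05 stood 7 of the 8 genes, against 21.9% of all genes tested, and DESeq2 called 3 of the 7 genes for which it gave an adjusted p, namely Ccnd1, Ccng1 and Plk2, against 9.63% of all genes with such a p. Without losartan library 2 edgeR called Cdkn1a alone among the 8, with an adjusted p of 0.0305, beside 0.121% of all genes, and without any other single library it called none of the 8.

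Among the inhibitors of cyclin-dependent kinases, Cdkn1a stood at 1.45 and 9.14 CPM in losartan libraries 1 and 2, against 26.6 and 25.8 CPM in untreated libraries 1 and 2, where CPM is the number of UMIs per 1000000 at edgeR's normalised library size. The losartan libraries differed from each other by more than counting error, with 95% Poisson intervals of 1.13 to 1.84 CPM in losartan library 1 and 8.32 to 10.0 CPM in losartan library 2, while the untreated libraries lay close together. The fitted log2 change was -2.30 ± 0.79 (SE, edgeR adjusted p = 0.193), or -1.52 when losartan library 1 was left out and -4.17 when losartan library 2 was. Cdkn2a encodes the arrest proteins p16 and p19Arf from separate starts, which counts per gene cannot separate. It gave 3 and 17 UMIs in losartan libraries 1 and 2, against 20 and 47 UMIs in untreated libraries 1 and 2, or 0.064 and 0.348 CPM against 0.533 and 0.934 CPM. These levels did not overlap but rest on few molecules, and the log2 change was -1.82 ± 0.74 (SE, edgeR adjusted p = 0.240).

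Mdm2 and Ccng1, which encodes cyclin G1, are p53 targets whose products act back on p53. Mdm2 stood at 94.3 and 103 CPM in losartan libraries, against 146 and 121 CPM in untreated libraries, a log2 change of -0.43 ± 0.13 (SE, edgeR adjusted p = 0.167). Ccng1 stood at 17.7 and 25.2 CPM in losartan libraries, against 32.9 and 37.8 CPM in untreated libraries, a log2 change of -0.72 ± 0.20 (SE, edgeR adjusted p = 0.149). For both genes the gap between the treatments was smaller than for Cdkn1a, with losartan library 2 nearer to the untreated libraries than losartan library 1.

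Plk2, a polo-like kinase of centriole duplication and a p53 target, stood at 7.45 and 8.41 CPM in losartan libraries, against 18.6 and 17.7 CPM in untreated libraries. Its libraries lay close together within each treatment, and its log2 change of -1.20 ± 0.13 (SE) had the lowest p of the 8 genes, with an edgeR adjusted p of 0.110. Trp53inp1, a p53 target whose product acts in p53 phosphorylation and autophagy, stood at 43.6 and 68.3 CPM in losartan libraries, against 80.8 and 93.7 CPM in untreated libraries, a log2 change of -0.64 ± 0.23 (SE, edgeR adjusted p = 0.208). Btg2, an antiproliferative factor that promotes removal of mRNA tails, stood at 43.5 and 32.9 CPM in losartan libraries, against 56.9 and 47.7 CPM in untreated libraries, a log2 change of -0.45 ± 0.17 (SE, edgeR adjusted p = 0.223). Ccnd1 encodes cyclin D1, which drives rather than halts passage through G1. It stood at 29.9 and 42.9 CPM in losartan libraries, against 80.4 and 56.6 CPM in untreated libraries, a log2 change of -0.91 ± 0.25 (SE, edgeR adjusted p = 0.148). For these 4 genes too, no losartan library reached an untreated one.

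**Figure D1:**
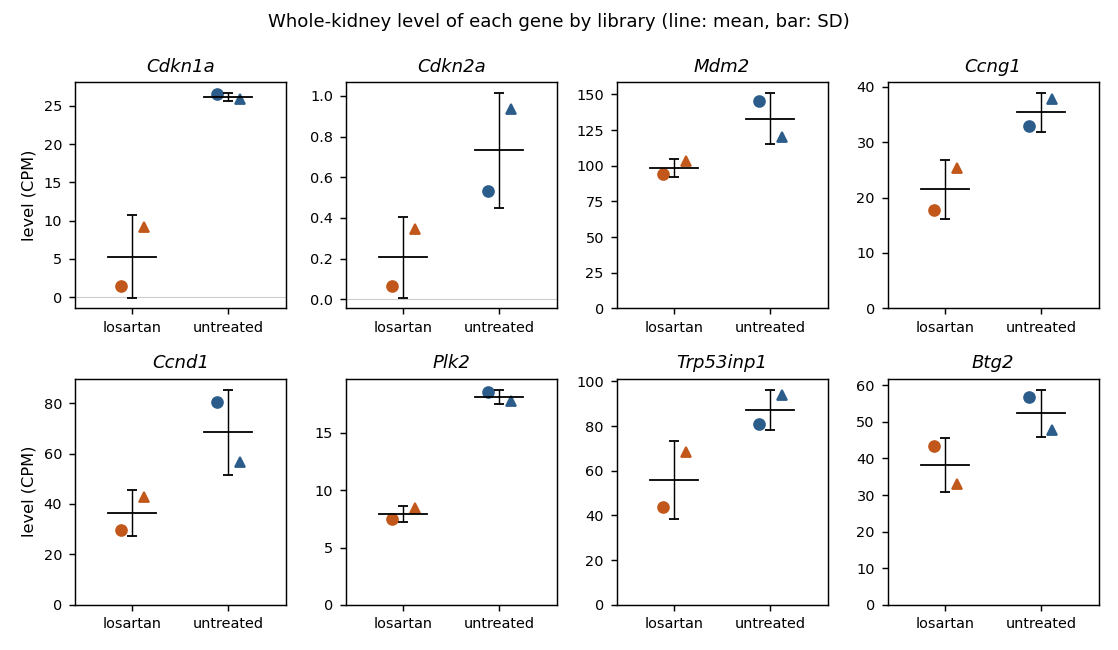
Level of each gene summed over all nuclei, in CPM, by treatment; circles are library 1 and triangles library 2 of each treatment, the line is the mean and the bar the SD of 2 libraries. In every panel both losartan libraries lie below both untreated libraries, and Cdkn1a ranges from 1.45 CPM in losartan library 1 to 26.6 CPM in untreated library 1.

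The class mix also differed between the treatments. Proximal tubule nuclei made up 46.0% and 36.6% of nuclei in losartan libraries 1 and 2, against 31.6% and 22.1% in untreated libraries 1 and 2. Injured proximal tubule nuclei made up 0.277% and 1.43%, against 4.37% and 4.89%. Nuclei of unnamed clusters held 23.9% and 22.8% of all UMIs in losartan libraries 1 and 2, against 11.0% and 6.13% in untreated libraries 1 and 2. The level of each gene was therefore also computed with every class, unnamed nuclei included, held at its mean UMI share over the 4 libraries. On plain CPM, the log2 ratio of means for Cdkn1a was -2.43 with the observed mix and -2.11 with the fixed mix, and for Plk2 it was -1.34 and -0.95. For Ccnd1 the ratio was -1.05 and -1.14, for Ccng1 -0.87 and -0.86, for Mdm2 -0.58 and -0.52, for Trp53inp1 -0.79 and -0.65, and for Cdkn2a -1.97 and -1.73. On the log2 scale, most of the difference of these genes was still present at the fixed class mix. The exception was Btg2, at -0.61 with the observed mix and -0.12 with the fixed mix. At the fixed mix its levels of 53.8 and 36.4 CPM in losartan libraries overlapped those of 56.0 and 42.0 CPM in untreated libraries, and its ratio turned to 0.13 when losartan library 2 was left out and to 0.12 when untreated library 1 was. These values are descriptions with no test. The mix of clusters inside a class and among unnamed nuclei was not held fixed, and its part in these values was not tested. In sums over nuclei, fewer nuclei with a transcript and less transcript per nucleus cannot be told apart.

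**Figure D2:**
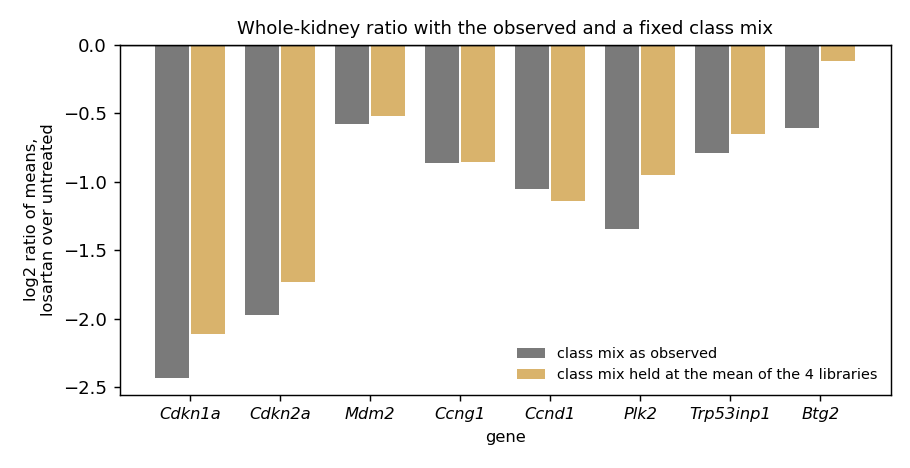
Log2 ratio of mean plain CPM, losartan over untreated, for each gene over the whole kidney; grey bars use the observed class mix and tan bars hold each class at its mean UMI share over the 4 libraries. The bars of Btg2 are -0.61 and -0.12, and those of Cdkn1a are -2.43 and -2.11.

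In proximal tubule nuclei, whose cells reabsorb most of the filtrate, 7 of the 8 genes were tested, and all 7 were lower in both losartan libraries than in either untreated library. That order held for 23.3% of the 15065 genes tested. The median log2 change was -1.39 over the 7 genes and -0.01 over all genes. None was called by edgeR, which called 0 genes in this class (0%), but all 7 had an unadjusted p under 0.05, as had 12.6% of all genes tested, and DESeq2 called 5 of them, against 2.01% of all genes. With losartan library 2 left out edgeR called 4 (Cdkn1a, Ccnd1, Plk2 and Trp53inp1), against 1.52% of all genes. With losartan library 1 left out it called Cdkn1a, against 0.0846%, and without either untreated library it called 0 of the 7. Leaving out a library leaves a treatment with 1 library, which is then assumed to vary like those of the other treatment.

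Cdkn1a gave 10 UMIs in 4161 nuclei of losartan library 1 and 91 UMIs in 3428 nuclei of losartan library 2, against 294 UMIs in 2715 nuclei of untreated library 1 and 286 UMIs in 1991 nuclei of untreated library 2. As levels these were 0.428 and 4.89 CPM in losartan libraries, against 22.2 and 20.9 CPM in untreated libraries, and the log2 change was -3.07 ± 0.82 (SE, edgeR adjusted p = 0.264). Again losartan library 1 was the lowest, and the untreated libraries agreed. With losartan library 1 left out the change was -2.13, and with losartan library 2 left out it was -5.62. Plk2 stood at 3.08 and 3.92 CPM in losartan libraries, against 13.7 and 14 CPM in untreated libraries, with a log2 change of -1.99 ± 0.20 (SE, edgeR adjusted p = 0.142). Its libraries agreed closely within both treatments.

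Ccnd1 in the same class stood at 25.6 and 43.7 CPM in losartan libraries, against 103 and 82.0 CPM in untreated libraries, a log2 change of -1.42 ± 0.27 (SE, edgeR adjusted p = 0.225). Btg2 stood at 10.1 and 8.86 CPM in losartan libraries, against 33.5 and 16.4 CPM in untreated libraries, a log2 change of -1.39 ± 0.34 (SE, edgeR adjusted p = 0.250). The changes of Ccng1 at -0.83 ± 0.19, Trp53inp1 at -0.72 ± 0.22 and Mdm2 at -0.64 ± 0.12 (SE) were smaller, with edgeR adjusted p between 0.228 and 0.298. Mdm2 stood at 85.7 and 102 CPM in losartan libraries, against 153 and 140 CPM in untreated libraries. Cdkn2a gave 0 and 0 UMIs in losartan libraries, against 1 and 0 UMIs in untreated libraries, and was not tested here.

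Because the proximal tubule clusters were unevenly filled, the genes were also read within each of the 5 clusters, on plain CPM. Cdkn1a, Mdm2, Ccnd1, Plk2 and Trp53inp1 were lower in both losartan libraries in 5 of 5 clusters, and Ccng1 and Btg2 in 4 of 5. Of all 15065 genes tested in the class, between 23.1% and 26.4% showed that order within a single cluster, 7.06% in at least 4 clusters and 1.9% in all 5. In cluster 3, which held more losartan nuclei than any of the other 4, Cdkn1a stood at 0.573 and 1.97 CPM in losartan libraries, against 5.11 and 12.9 CPM in untreated libraries. In cluster 12, which held more untreated nuclei than any of the others, it stood at 0 and 7.67 CPM in losartan libraries, against 31.6 and 21.4 CPM in untreated libraries. These losartan values came from 0 UMIs in 64 nuclei and 13 UMIs in 299 nuclei, against 136 and 115 UMIs in untreated libraries. The cluster 3 values rest on 6 and 12 UMIs in losartan libraries, against 5 and 13 UMIs in untreated libraries. In cluster 5, with the glucose transporter Slc5a2 among its leading genes, Ccnd1 stood at 70.7 and 118 CPM in losartan libraries, against 281 and 222 CPM in untreated libraries. In cluster 6, led by Slc7a12 and Cyp7b1, Ccnd1 stood at 6.27 and 13.8 CPM in losartan libraries, against 34.9 and 17.0 CPM in untreated libraries. The level of Ccnd1 thus differed widely between these 2 clusters, while the order of the treatments was the same in both.

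Injured proximal tubule nuclei, marked by Havcr1 and Vcam1, had the highest untreated level of Cdkn1a, Mdm2, Ccng1 and Ccnd1 among the 15 classes and the second highest of Plk2, Trp53inp1 and Btg2. The class held 25 and 134 nuclei in losartan libraries 1 and 2, against 375 and 441 nuclei in untreated libraries 1 and 2. Cdkn1a stood at 10.3 and 51.8 CPM in losartan libraries, against 99.97 and 82.5 CPM in untreated libraries. The value of losartan library 1 came from 1 UMI, with an exact 95% Poisson interval of 0.262 to 57.7 CPM. Within each library, Cdkn1a was 24.2 and 10.6 times as high in injured as in proximal tubule nuclei in losartan libraries 1 and 2, against 4.51 and 3.95 times in untreated libraries 1 and 2. This order held for all 7 genes tested in both classes. Each was higher in injured than in proximal tubule nuclei of every library, at ratios between 1.02 for Btg2 in losartan library 1 and 24.2. In losartan library 1, however, the injured values of Plk2, Btg2, Ccng1 and Ccnd1 came from 1, 1, 2 and 3 UMIs. Except for Trp53inp1, the exact 95% Poisson interval of each gene there included the proximal tubule level. Injured nuclei carried 1.47% and 8.05% of all Cdkn1a UMIs in losartan libraries 1 and 2, against 20.5% and 21.3% in untreated libraries 1 and 2. They were 0.277% and 1.43% of nuclei in losartan libraries, against 4.37% and 4.89% in untreated libraries. Of the UMIs of all genes they held 0.184% and 1.42% in losartan libraries, against 5.79% and 7.37% in untreated libraries. Since the classes were built from the same nuclei, with 3 of the 8 genes among the genes used for clustering, levels across classes are a description with no test.

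**Figure D3:**
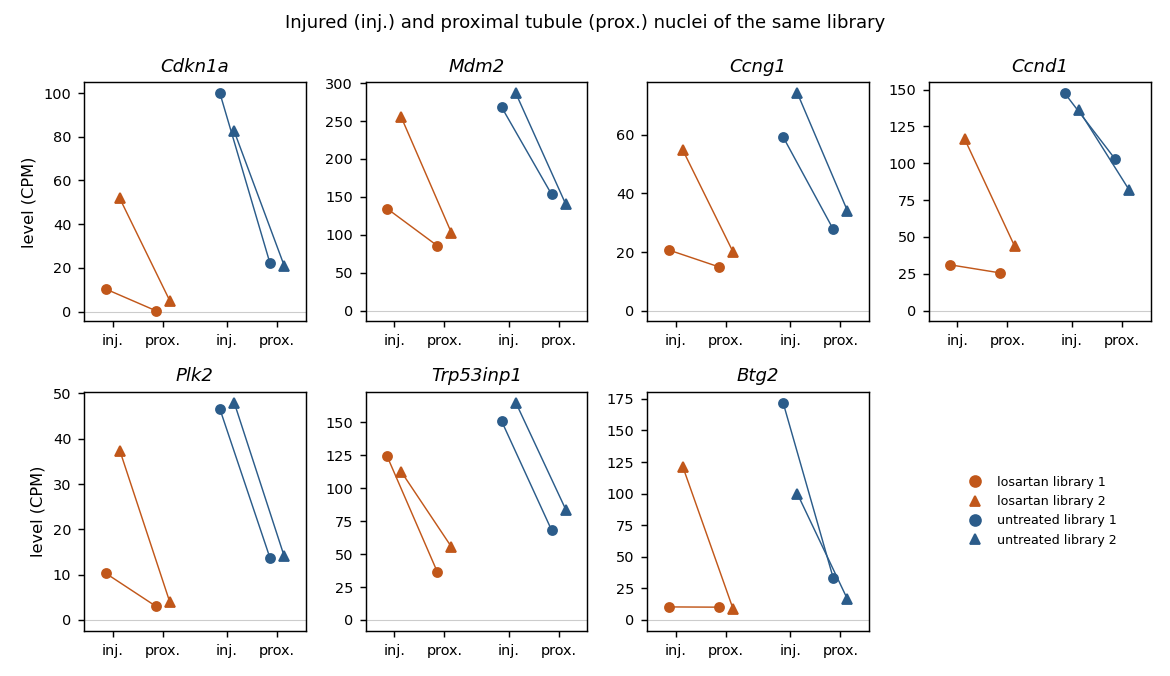
Levels in CPM of 7 genes in injured (inj.) and proximal tubule (prox.) nuclei; a line joins the 2 classes of 1 library, circles are library 1 and triangles library 2. Every line runs downward from injured to proximal tubule nuclei, from 99.97 to 22.2 CPM for Cdkn1a in untreated library 1, and Btg2 in losartan library 1 is nearly level at 10.3 and 10.1 CPM. The injured values of losartan library 1 rest on 1 to 13 UMIs per gene.

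Within injured nuclei the treatments were further apart in number of nuclei than in level. Of the 8 genes, 6 were lower in both losartan libraries than in either untreated library, as were 21.2% of the 11107 genes tested in the class, and the exceptions were Btg2 and Cdkn2a. None of the 7 genes tested was called by edgeR (0.036% of all genes were) or by DESeq2, and 1, Cdkn1a, had an unadjusted p under 0.05, against 4.86% of all genes. The log2 changes ran from -1.02 ± 0.33 (SE, edgeR adjusted p = 0.675) for Cdkn1a to -0.32 ± 0.23 (SE, edgeR adjusted p = 1.0) for Mdm2. Without losartan library 1, whose class sum rests on 25 nuclei, the change of Cdkn1a was -0.81, and without losartan library 2 it was -3.18. Btg2 stood at 10.3 and 121 CPM in losartan libraries, against 172 and 99.8 CPM in untreated libraries, so that losartan library 2 lay between the untreated ones. The kidney androgen-regulated gene Kap, made by proximal tubule, rose in losartan libraries in this class by 1.86 on the log2 scale (edgeR adjusted p = 0.00145), and its part in the member values was not tested.

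The losartan effect on Cdkn1a differed between injured and proximal tubule nuclei in a test of the difference itself, with the library as a block. The log2 change was less negative in injured nuclei by 1.34 ± 0.37 (SE, edgeR adjusted p = 0.0483), and 0.728% of 15237 genes were called in that comparison. The call was lost when any 1 of the 4 libraries was left out. The difference was then 1.29 and 2.39 for losartan libraries 1 and 2, and 1.43 and 1.25 for untreated libraries 1 and 2, with edgeR adjusted p of 0.527, 0.818, 0.967 and 1.0 in that order. The other 6 genes tested were not called, Btg2 being nearest with a difference of 0.89 ± 0.27 (SE, edgeR adjusted p = 0.0993). With losartan library 2 left out, the Btg2 difference turned to -2.53 (edgeR adjusted p = 0.631), and without each other library it stayed above 0.

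Endothelial nuclei, which line the vessels, had the highest level of Plk2 of the 15 classes, above every other class in all 4 libraries. Plk2 stood at 76.9 and 78.3 CPM in losartan libraries, against 109 and 87.4 CPM in untreated libraries, with a log2 change of -0.33 ± 0.19 (SE, edgeR adjusted p = 1.0). The groups did not overlap, but the gap was small beside that in proximal tubule nuclei. Endothelium was 3.33% and 5.83% of nuclei and carried 20.1% and 32.4% of Plk2 UMIs in losartan libraries 1 and 2, against 7.98% and 9.93% of nuclei and 29.9% and 28.7% of Plk2 UMIs in untreated libraries 1 and 2. The losartan effect on Plk2 was less negative in endothelial than in proximal tubule nuclei by 1.65 ± 0.26 (SE, edgeR adjusted p = 0.0145), a comparison in which 0.0916% of 15287 genes were called. This difference was called without each library in turn, at 1.43 to 1.88. Ccnd1 was less negative in endothelial nuclei by 1.24 ± 0.25 (SE), with an edgeR adjusted p of 0.0616. It was called with untreated library 1 left out (adjusted p = 0.00901), when 2.81% of all genes were. With untreated library 2 left out it was called at an adjusted p of 5.7e-05, as was Btg2 at a difference of 2.26 and an adjusted p of 2.8e-09, when 0.74% of all genes were. Between thick ascending limb and proximal tubule none of 7 genes was called, and 0.00655% of 15276 genes were. Ccnd1, with a difference of 1.12, was called there with untreated library 1 left out (edgeR adjusted p = 0.00195), when 3.19% of all genes were. With untreated library 2 left out, Ccnd1 was called at an adjusted p of 0.0247 and Btg2 at an adjusted p of 0.00812, when 0.414% of all genes were.

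By untreated level Cdkn1a was second highest in endothelium, at 7.69 and 28.8 CPM in losartan libraries, against 41.7 and 55.6 CPM in untreated libraries, a log2 change of -1.28 ± 0.45 (SE, edgeR adjusted p = 0.869). Losartan library 1 was again far below losartan library 2. Of the 8 genes, 6 were lower in losartan libraries without overlap, against 18.1% of 11417 genes tested, and edgeR and DESeq2 called 0 of them (0% of all genes by edgeR). At an unadjusted p under 0.05 stood 1 gene, Cdkn1a, against 5.09% of all genes, and with untreated library 1 left out edgeR called it, with an adjusted p of 0.0131, beside 2.45% of all genes. Against proximal tubule the change of Cdkn1a was less negative by 1.62 ± 0.38 (SE), with an edgeR adjusted p of 0.147. With losartan library 2 left out that p was 0.0469, with untreated library 1 left out 0.0304 and with untreated library 2 left out 0.00930, settings in which 0.57%, 2.81% and 0.74% of all genes were called. The endothelial values of Cdkn2a rest on 1 and 3 UMIs in losartan libraries, against 6 and 15 UMIs in untreated libraries.

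Across all 15 classes, Cdkn1a had a log2 change below 0 in each of the 11 classes where it was tested, and in 9 of the 15 both losartan libraries lay below both untreated libraries. That order held for 19.7% of all 148810 gene and class pairs tested, and for between 13.7% and 23.4% of genes in a single class. The changes were -2.85 ± 0.58 (SE) in intercalated cells of the collecting duct, -2.05 ± 0.63 in thick ascending limb, -1.71 ± 0.53 in distal convoluted tubule, -1.70 ± 0.49 in macrophages and dendritic cells and -1.64 ± 0.59 in principal and connecting tubule cells, with edgeR adjusted p between 0.0844 and 0.945. Thick ascending limb, the loop segment that reabsorbs salt, stood at 0.606 and 10.0 CPM in losartan libraries, against 20.1 and 27.1 CPM in untreated libraries. Intercalated cells stood at 1.89 and 3.04 CPM in losartan libraries, against 13.5 and 22.8 CPM in untreated libraries, from 2 and 3 UMIs against 14 and 27 UMIs. In the other 6 classes the groups overlapped. Thin limb stood at 20.1 and 11.3 CPM in losartan libraries, against 15.4 and 23.8 CPM in untreated libraries, with a log2 change of -0.45 ± 0.49 (SE, edgeR adjusted p = 1.0). Lymphocytes stood at 13.6 and 23.6 CPM in losartan libraries, against 18.7 and 21.9 CPM in untreated libraries, and urothelium at 7.93 and 25.3 CPM, from 2 and 6 UMIs, against 0 and 19.8 CPM, from 0 and 13 UMIs. The others were podocytes, parietal epithelium and fibroblasts, which stood at 1.18 and 8.54 CPM in losartan libraries, against 7.62 and 13.1 CPM in untreated libraries.

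**Figure D4:**
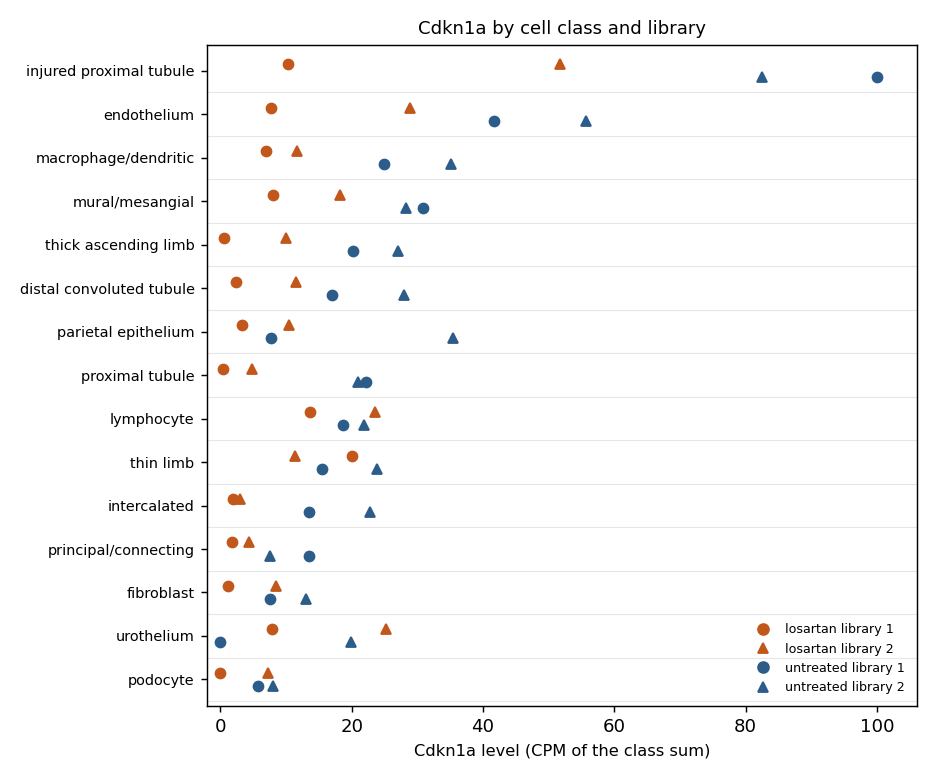
Level of Cdkn1a in CPM in each of the 15 classes and 4 libraries; circles are library 1, triangles library 2, orange losartan and blue untreated. Injured nuclei reach 99.97 CPM in untreated library 1, and in 9 classes both losartan libraries lie below both untreated libraries.

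Within single classes edgeR called 0 of 90 tests of the 8 genes, against 0.169% of all gene and class pairs. An unadjusted p under 0.05 was found in 28 of the 90, against 8.27% of all pairs, and DESeq2 called 6 of 75, against 0.596% of all pairs. With losartan library 1 left out edgeR called 1 of 98 tests of the 8 genes, against 0.0803% of all pairs, and with losartan library 2 left out 4 of 96, against 0.539%. With untreated library 1 left out it called 16 of 94, against 4.93% of all pairs, and with untreated library 2 left out 6 of 92, against 1.89%. Ccng1 had a log2 change below 0 in all 14 classes tested and was lower without overlap in 11 of 15, with the most negative changes in urothelium at -1.87 ± 0.64 and in macrophages and dendritic cells at -1.28 ± 0.40 (SE). In urothelium it stood at 15.9 and 12.6 CPM in losartan libraries, against 53.3 and 53.4 CPM in untreated libraries, from 4, 3, 5 and 35 UMIs. Mdm2 was below 0 in 12 of 15 classes and lower without overlap in 9, at changes no more negative than the -0.64 of proximal tubule. Podocytes, the filtration cells of the glomerulus, ran the other way, at 96.1 and 110 CPM of Mdm2 in losartan libraries, against 69.4 and 55.0 CPM in untreated libraries, a log2 change of 0.74 ± 0.28 (SE, edgeR adjusted p = 0.422).

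Trp53inp1 was below 0 in 12 of 15 classes and lower without overlap in 10. Lymphocytes had its highest level, 204 and 146 CPM in losartan libraries, against 464 and 887 CPM in untreated libraries, and a log2 change of -1.96 ± 0.41 (SE, edgeR adjusted p = 0.611). The class pooled nuclei with T, NK or B cell markers, 36 and 49 in losartan libraries, against 120 and 243 in untreated libraries. The part of that cell mix in the Trp53inp1 value was not tested. The untreated libraries differed from each other by more than the losartan libraries did, and edgeR called the gene with untreated library 1 left out, at -2.36, when it called 16.7% of all genes in the class, and with untreated library 2 left out, at -1.43, when it called 0.512%. Ccnd1 was below 0 in 11 of 13 classes, with -1.0 ± 0.29 (SE, edgeR adjusted p = 0.819) in principal and connecting tubule cells. In mural and mesangial cells it was higher, at 35.1 and 52.5 CPM in losartan libraries, against 28.3 and 24.7 CPM in untreated libraries, with a log2 change of 0.74 ± 0.41 (SE, edgeR adjusted p = 0.446). Plk2 passed the filter on low counts in only 7 classes and was below 0 in 6 of them, principal and connecting tubule cells being the exception at 0.17. In macrophages and dendritic cells, where it was not tested, it was higher without overlap, at 14 and 23.4 CPM from 6 and 10 UMIs in losartan libraries, against 9.36 and 8.6 CPM from 6 and 11 UMIs in untreated libraries.

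Btg2 was the least uniform gene, with a log2 change below 0 in 8 of 15 classes, lower without overlap in 4 and higher without overlap in 2, an order that 18.3% of all gene and class pairs showed. In principal and connecting tubule cells, which adjust sodium and water in the collecting duct, it stood at 296 and 96.2 CPM in losartan libraries, against 70.0 and 62.4 CPM in untreated libraries, a log2 change of 1.57 ± 0.49 (SE, edgeR adjusted p = 0.864). Losartan library 1 set most of that difference, and without it the change was 0.54. In the same class the summed level of 18 early response genes, among them Fos, Jun and Egr1, was 819 and 299 CPM in losartan libraries, against 276 and 451 CPM in untreated libraries, and its part in the Btg2 value was not tested. In fibroblasts Btg2 stood at 82.1 and 58.0 CPM in losartan libraries, against 53 and 35.1 CPM in untreated libraries, a log2 change of 0.66 ± 0.26 (SE, edgeR adjusted p = 0.535). Proximal tubule had the lowest untreated level of Btg2 of all 15 classes, and also its most negative change. Cdkn2a was tested in no single class, and lymphocytes had its highest untreated level, 7.0 and 6.09 CPM from 3 and 5 UMIs, against 0 UMIs in both losartan libraries.

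**Figure D5:**
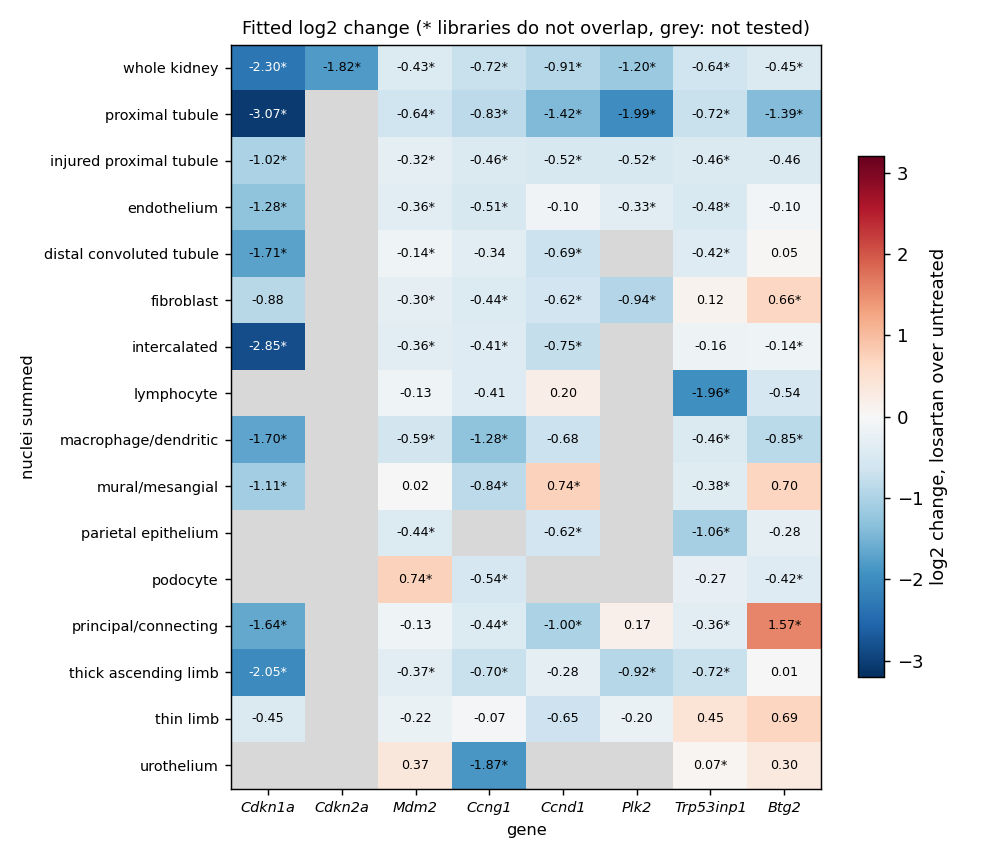
Log2 change, losartan over untreated, of each gene in each class and in the whole kidney; a star marks values whose losartan and untreated libraries do not overlap, and grey marks genes not tested. Cdkn1a and Ccng1 are negative wherever tested, from -3.07 for Cdkn1a in proximal tubule, and Btg2 is mixed, from -1.39 in proximal tubule to 1.57 in principal and connecting tubule cells.

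In untreated kidneys the order of the classes differed from gene to gene, on levels that are means of 2 libraries and are compared within a gene only. Cdkn1a averaged 91.3 CPM in injured nuclei, 48.7 CPM in endothelium, 30.1 CPM in macrophages and dendritic cells and 29.6 CPM in mural and mesangial cells, and the last pair did not differ beyond its spread. Mdm2 averaged 278 CPM in injured nuclei, 164 CPM in distal convoluted tubule and 147 CPM in proximal tubule. Ccnd1 averaged 142 CPM in injured nuclei and 92.6 CPM in proximal tubule, ahead of macrophages and dendritic cells at 62.5 CPM. Ccng1 averaged 66.8 CPM in injured nuclei, above distal convoluted tubule at 54.0 CPM and urothelium at 53.4 CPM, which did not differ beyond their spread. Plk2 averaged 98.2 CPM in endothelium, well above injured nuclei at 47.3 CPM, which urothelium at 38.9 CPM matched within its spread. Trp53inp1 averaged 676 CPM in lymphocytes and 158 CPM in injured nuclei. Btg2 averaged 165 CPM in urothelium, 136 CPM in injured nuclei and 127 CPM in lymphocytes, 3 classes that did not differ beyond their spread.

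Counted by nucleus, Cdkn1a had at least 1 UMI in 0.240% and 2.19% of proximal tubule nuclei in losartan libraries 1 and 2, against 8.18% and 8.64% in untreated libraries 1 and 2. Among injured nuclei the shares were 4.0% and 19.4% in losartan libraries, against 30.9% and 33.1% in untreated libraries. Podocytes, the class with the lowest untreated Cdkn1a level, had 0% and 1.59% in losartan libraries, against 1.96% and 3.35% in untreated libraries, where 0 of 111 nuclei allows a share of nuclei with a UMI of up to 2.7%. In both untreated libraries the proximal tubule share was above that of podocytes of the same library. After thinning each nucleus to 1500 UMIs the proximal tubule shares were 0.0721% and 0.642% in losartan libraries, against 3.54% and 2.46% in untreated libraries, and the injured shares were 4.0% and 4.48%, against 12% and 10.2%. Median depth was 4947 and 4732 UMIs per proximal tubule nucleus in losartan libraries, against 4003 and 5626 UMIs in untreated libraries, and for podocytes it was 3524 and 3339 UMIs, against 3260 and 4125 UMIs.

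The other genes of the pathway were read from lists of related genes, which were also chosen with earlier results of these data known. Of 31 further p53 targets tested in the whole kidney, edgeR called 0, 26 had a log2 change below 0 and the median was -0.63, against -0.01 over all genes. In proximal tubule it called 0 of 30, 27 were below 0 and the median was -0.53. As examples chosen after their values were seen, Zmat3, an RNA-binding regulator of splicing, stood at 16.8 and 23.2 CPM in losartan libraries, against 43.0 and 40.6 CPM in untreated libraries in proximal tubule nuclei. The proapoptotic gene Bax stood at 14 and 16.6 CPM in losartan libraries, against 25.5 and 24.3 CPM in untreated libraries in these nuclei. The ribonucleotide reductase subunit Rrm2b ran the other way, at 51.4 and 49.9 CPM in losartan libraries, against 32.2 and 43.5 CPM in untreated libraries.

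Upstream, Trp53 itself stood at 26.3 and 26.5 CPM in losartan libraries, against 28.4 and 28.3 CPM in untreated libraries over the whole kidney, a log2 change of -0.10 ± 0.09 (SE, edgeR adjusted p = 0.546). Mdm4, the relative of Mdm2 that holds p53 inactive, stood at 170 and 161 CPM in losartan libraries, against 176 and 156 CPM in untreated libraries, with overlapping groups. Of 12 p53 regulators 7 were below 0 in the whole kidney, at a median of -0.02. The other 5 inhibitors of cyclin-dependent kinases were all below 0 in the whole kidney at a median of -0.57, and in proximal tubule 3 of 4 were, at a median of -0.17. G1 cyclins and kinases were below 0 for 9 of 13 genes at a median of -0.15, relatives of the 8 genes for 5 of 10 at -0.14, and proliferation genes for 22 of 24 at -0.37. Secreted and nuclear markers used for senescence were below 0 for 9 of 15 genes at a median of -0.46, and early response genes for 12 of 18 at -0.38. None of these lists had a called gene in the whole kidney, where 0% of all genes were called. In the single classes 0.169% of all gene and class pairs were called. The lists of p53 regulators and targets, other inhibitors, cyclins, relatives, proliferation and early response genes had no called gene there. The 1 called gene of the senescence list was Ctgf, a matricellular protein, which fell by 1.41 on the log2 scale in podocytes (edgeR adjusted p = 0.0364). In podocytes 0.395% of all genes were called.

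Markers of injured and of healthy tubule differed in opposite directions beside these genes. All 11 injured tubule genes were below 0 in the whole kidney at a median of -1.53, with 0 called, and all 12 proximal tubule genes were above 0 at a median of 1.06, with 0 called. Single injury genes fell in other classes, such as Dcdc2a in distal convoluted tubule by 3.34 on the log2 scale (edgeR adjusted p = 0.00287) and Spp1, osteopontin, in thick ascending limb by 1.40 (edgeR adjusted p = 0.0419). The proximal tubule genes were also higher in losartan libraries in nuclei of other classes, at list medians from 0.27 in injured nuclei to 1.64 in intercalated cells. In 7 classes, where edgeR called between 0.036% and 0.831% of all genes, between 1 and 5 of the 12 rose past the threshold. Their summed level in endothelium was 6926 and 5621 CPM in losartan libraries, against 3162 and 2246 CPM in untreated libraries. Their part in the values of the 8 genes was not tested. Without the 10% of nuclei richest in these genes the log2 change of Cdkn1a was -1.36 in endothelium and -1.05 in injured nuclei. It was -1.74 in distal convoluted tubule, -0.89 in fibroblasts, -2.72 in intercalated cells and -2.03 in thick ascending limb. In principal and connecting tubule cells it was -1.53, and in thin limb it moved from -0.45 to -0.17. Changes of other genes moved either way, as for Ccng1, from -0.54 to -0.27 in podocytes and from -0.46 to -0.63 in injured nuclei.

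The genes whose levels over the 15 classes were most like those of each gene were found by Pearson's r of log2(CPM + 1) among 13993 genes, as a description over classes of the same 4 libraries. Mdm2 was most like Zmat3 at r = 0.90, then Gpr89 at 0.81 and Ccng1 at 0.80. Cdkn1a was most like Cep41 at 0.85, Pdgfb at 0.83 and S100a10 at 0.79, and Ccnd1 most like Pus1 at 0.84, Myc at 0.81 and Samd9l at 0.79. Ccng1 was most like Mvb12a at 0.82, Tdg at 0.81 and Rragd at 0.80. Plk2 was most like Pdia5 at 0.91, Tnfaip1 at 0.90 and Sema6a at 0.88, Trp53inp1 most like Gimap7, Tcf7 and Txndc5, each at 0.86, and Btg2 most like Gadd45b at 0.89, Vopp1 at 0.88 and Scai at 0.88. Among the 8 genes themselves, Cdkn1a was most like Ccnd1 at 0.72 and least like Btg2 at 0.02.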

How the data were processed

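Single-nucleus RNA was measured in 4 mouse kidney libraries. Nuclei came from frozen kidneys and were captured on a 10x Chromium Chip G, per the labels' protocols. The deposited values are raw UMI counts per gene and nucleus, written by Cell Ranger 5.0.0, per the file headers, and the submitters' processing notes name the build mm10 and Bowtie 0.12.2 with no role. The strand used in counting is not given in the sources used here.

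Barcodes with at least 500 UMIs, 300 genes and at most 10% mitochondrial UMIs were kept. Doublets were scored with Scrublet, whose automatic threshold worked in untreated library 1 only, so in the other libraries top-scoring barcodes were dropped at a rate of 0.8% for every 1000 nuclei (3171 doublets in all, and 510 barcodes over the mitochondrial limit). Nuclei were clustered with scanpy 1.11.5 and igraph 0.11.9 on 3000 variable genes, 30 components and 15 neighbours, and clusters were named from 26 marker sets. Of the 38 clusters 9 stayed unnamed, with 3188 nuclei. The class names were rebuilt here and may differ from those of the study.

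Counts were summed per library and class and tested with edgeR 4.0.16 (TMM, quasi-likelihood, R 4.3.3) over all genes that passed its filter on low counts, with Benjamini-Hochberg adjustment and a threshold of 0.05. DESeq2 1.42.0 was an alternative. An exact permutation test of 2 against 2 libraries cannot go below p = 0.333, so none is given. Poisson and exact binomial intervals cover counting error only. The fits were tested on simulated data. The 8 genes and all lists were chosen with earlier results of these data known. Outside the 8, genes are named where called (at most 6 per list and comparison), with Trp53 and Mdm4 always, and for likeness the 3 highest correlations among genes reaching 10 CPM in a class. Of 32 further p53 targets listed 31 matched a symbol.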

Additional observations from a re-analysis of the deposited data

Results flagged for a closer look

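The losartan effect on Cdkn1a differed between injured and proximal tubule nuclei by a log2 difference of 1.34 in a test of the difference itself, and the difference was not called without any 1 of the 4 libraries. The losartan effect on Plk2 differed between endothelial and proximal tubule nuclei by 1.65 in the same kind of test, and was called without each library in turn.

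For 5 gene and class pairs that were tested, both losartan libraries lay above both untreated libraries, while in proximal tubule nuclei both lay below, and none of these differences was tested. The log2 changes, losartan over untreated, were 0.74 for Mdm2 in podocytes, 0.74 for Ccnd1 in mural and mesangial cells, 0.068 for Trp53inp1 in urothelium, 0.66 for Btg2 in fibroblasts and 1.57 for Btg2 in principal and connecting tubule cells. The urothelial value rests on 14 and 14 UMIs in losartan libraries, against 5 and 36 UMIs in untreated libraries. Plk2 in macrophages and dendritic cells had the same order but did not pass the filter on low counts.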

How the results depend on the processing

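Of the 8 genes edgeR called 0 in the whole kidney, also with RLE size factors, with no filter on low counts and with doublets kept, while DESeq2 called 3 (9.63% of all genes) and leaving out a library gave 0 to 1. Within classes it called 0 with RLE size factors, with the gene lists left out of clustering and without the nuclei richest in proximal tubule UMIs, but 6 with no filter, 2 with doublets kept and 6 by DESeq2 (against 1.04%, 0.985% and 0.596% of all pairs), and leaving out a library gave 1 to 16 (0.0803% to 4.93%). The number of called differences between classes, 2 of 22, was 2 with RLE size factors. In the injured, endothelial and thick ascending limb comparisons 0.728%, 0.0916% and 0.00655% of all genes were called. With RLE size factors these shares were 0.742%, 0.0458% and 0.00655%. When a library was left out, the difference ran from 1.25 to 2.39 for Cdkn1a in injured nuclei and from 1.43 to 1.88 for Plk2 in endothelium. The Cdkn1a call did not hold in any of these settings, while the Plk2 call did. The replicate numbers are shared between treatments, and no label says what same-numbered libraries have in common. Over 17271 genes the deviations of the 2 same-numbered pairs correlated at 0.38, and whether they share a batch was not tested. With the replicate block edgeR called 4 of the 8 genes in the whole kidney, against 12.3% of all genes, and 4 of 90 tests within classes, against 1.49% of all pairs. In endothelium the log2 change of Ccnd1 ran from -0.71 to 0.24 and that of Btg2 from -0.46 to 0.48 when a library was left out, both turning sign: Ccnd1 was 0.24 without losartan library 1 and 0.06 without untreated library 2, and Btg2 was 0.48 without untreated library 2. At the fixed class mix, where leaving out libraries was added after the data were seen, Btg2 ran from -0.40 to 0.13, with 0.13 without losartan library 2 and 0.12 without untreated library 1. The cause of these shifts was not tested. Depth limits Cdkn2a everywhere, at 3 to 47 UMIs per library, and all injured values of losartan library 1, at 25 nuclei.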

Other observations

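An unnamed cluster led by Top2a and Mki67, genes of dividing cells, held 33 and 31 nuclei in losartan libraries 1 and 2, against 30 and 40 nuclei in untreated libraries 1 and 2, and was chosen after its values were seen. Mdm2 stood there at 87.7 and 118 CPM in losartan libraries, against 991 and 101 CPM in untreated libraries. Of the 183 Mdm2 UMIs of untreated library 1 in this cluster, 140 came from 1 nucleus. Cdkn1a stood at 0 and 37.9 CPM in losartan libraries, against 54.2 and 41.1 CPM in untreated libraries, on plain CPM.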
